A study of Mus musculus with 24 samples.

Results

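The epithelial to mesenchymal transition (EMT) genes described here are Cdh1, Epcam, Cdh2, Vim, Fn1, Snai1, Snai2, Twist1, Zeb1 and Zeb2. They were taken as a fixed list of symbols that had to be in the count tables of both days, with the first line used where a symbol had several. All 10 were found among the 22926 gene symbols, and all 10 passed the filter on low counts in every fit.

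The samples were mouse embryonic stem cells (ESCs) of 5 genotypes, in which polyadenylated RNA was sequenced in 24 libraries. Each library was made from 1 clone of a 129/SVj-derived line grown on gelatin without feeder cells. The line carries eGFP behind an IRES at Oct4. The paper took 1 clone as parental line, called wild-type (WT), and does not state how the 3 WT clones relate to it. The knockouts carried CRISPR indels: Tet1-/- in Tet1, Tet2-/- in Tet2, DKO in Tet1 and Tet2, and TKO in Tet1, Tet2 and Tet3. WT and Tet1-/- had 3 clones on each day, and the other genotypes had 2. The D0 libraries were from ESCs kept in leukemia inhibitory factor (LIF), and the D6 libraries from cells grown for 6 days with LIF withdrawn. The clones were the same on both days except in Tet1-/-, where Tet1_KO_2.3 was replaced at D6 by Tet1_KO_2.2. Tet enzymes oxidize methylated cytosine in DNA.

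In EMT, cells joined to each other in a sheet lose their junctions and become motile. Transcription factors of the Snail, Zeb and Twist families bind E-box sequences and repress E-cadherin and other junction genes, while N-cadherin, vimentin and fibronectin increase. During gastrulation, cells of the epiblast pass through such a change at the primitive streak when they form mesoderm, and ESCs resemble the epiblast in expressing E-cadherin and EpCAM.

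The promoter sequences of an EMT transcription factor and of an epithelial target are shown because both carry the E-box that Snail and Zeb proteins recognize. A RefSeq promoter entry (build GRCm38.p6) was available for 5 of the 10 genes: Vim, Zeb2, Snai1, Twist1 and Epcam. The 250 bases before each start site were searched for CACCTG on both strands, where a match on the other strand reads CAGGTG. The motif was in 17.2% of 32851 promoter windows of that length, and 2.06% held 2 or more. The Epcam window held 2 matches, 187 and 19 bases before the start, the Snai1 window 1 match 126 bases before it, and the windows of Vim, Twist1 and Zeb2 none. In both sequences, which lie at chr2:167537945-167538194 for Snai1 and chr17:87635729-87635978 for Epcam on the + strand, the capitals mark the matches.
Snai1: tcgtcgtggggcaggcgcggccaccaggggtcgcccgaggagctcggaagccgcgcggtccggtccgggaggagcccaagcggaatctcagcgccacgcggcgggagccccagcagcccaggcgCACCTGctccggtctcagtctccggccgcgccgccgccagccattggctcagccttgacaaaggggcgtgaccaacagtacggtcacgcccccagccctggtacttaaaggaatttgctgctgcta
Epcam: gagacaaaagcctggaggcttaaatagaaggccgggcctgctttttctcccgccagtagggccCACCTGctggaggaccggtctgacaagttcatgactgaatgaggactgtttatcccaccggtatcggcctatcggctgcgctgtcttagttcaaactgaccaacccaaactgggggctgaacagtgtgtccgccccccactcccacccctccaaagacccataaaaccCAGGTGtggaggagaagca

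Library totals ran from 21729346 to 37290208 counts at D0 and from 18400463 to 34219640 at D6, and levels are given as CPM, the reads of a gene per 1000000 counted reads after TMM scaling. The floor set for a library without a single read was 3 counts, which covers counting error only and equalled 0.0814 to 0.151 CPM. Tet2 RNA at D0 was 20.9 to 23.2 CPM in Tet2-/- and 87.9 to 93.9 CPM in WT. Tet1 RNA at D0 was 93.4 to 358 CPM in Tet1-/- and 220 to 431 CPM in WT, so these ranges overlapped. Tet1 in the TKO clones at D0 was at 41.7 and 567.5 CPM, on both sides of WT, and Tet2 at D6 was 15.9 to 16.6 CPM in Tet2-/- against 12.3 to 16.0 CPM in WT. An indel need not remove the transcript, and the RNA level therefore checks the labels only in part. A list of 10 ESC markers summed to 6898 to 8104 CPM over all D0 libraries. At D6, clones of a genotype differed: the sum of 11 mesoderm and primitive streak markers was 321 CPM in WT clone O4.2 against 879 and 1063 CPM in clones O4.1 and O4.13, 310 CPM in clone Tet1_KO_2.4 against 659 and 1138 CPM, and 172 CPM in clone TKO_8.4 against 454 CPM. Values without one or another of these libraries are given beside some results below. Without D6 clone Tet1_KO_2.4, the same 7 members were called over days in Tet1-/-, with Fn1 at 1.41, Snai1 at 2.87 and Cdh2 at 4.58 on the log2 scale. A gene was called when edgeR's quasi-likelihood test gave a Benjamini-Hochberg adjusted p under 0.05 with an absolute log2 fold change above 1, and all fold changes and adjusted p-values below come from that test unless another tool is named.

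Compared per length, as RPKM over the longest coding transcript of each gene, the level of these genes in WT ESCs at D0 spanned several orders of magnitude. Vim was at 184 ± 52.3 (SD, n = 3) RPKM, Fn1 at 140 ± 20.7, Cdh1 at 97.5 ± 6.81 and Epcam at 40.2 ± 1.19. Vim and Fn1 overlapped between clones, as they did at D6, whereas the order Fn1, Cdh1, Epcam was the same in each D0 clone. The transcription factors were lower: Zeb1 at 3.25 ± 0.544 RPKM, Snai1 at 2.37 ± 0.0342, Twist1 at 1.12 ± 0.129, Snai2 at 0.323 ± 0.109 and Zeb2 at 0.0382 ± 0.00837. Cdh2, at 0.791 ± 0.153 RPKM, lay between Twist1 and Snai2. At D6, Cdh2 reached 24.7 ± 13.6 RPKM and Snai1 17.1 ± 9.36 RPKM, and their ranges over clones overlapped. The RNA of the mesenchymal proteins vimentin and fibronectin was thus abundant in these ESCs before LIF withdrawal.

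**Figure D1:**
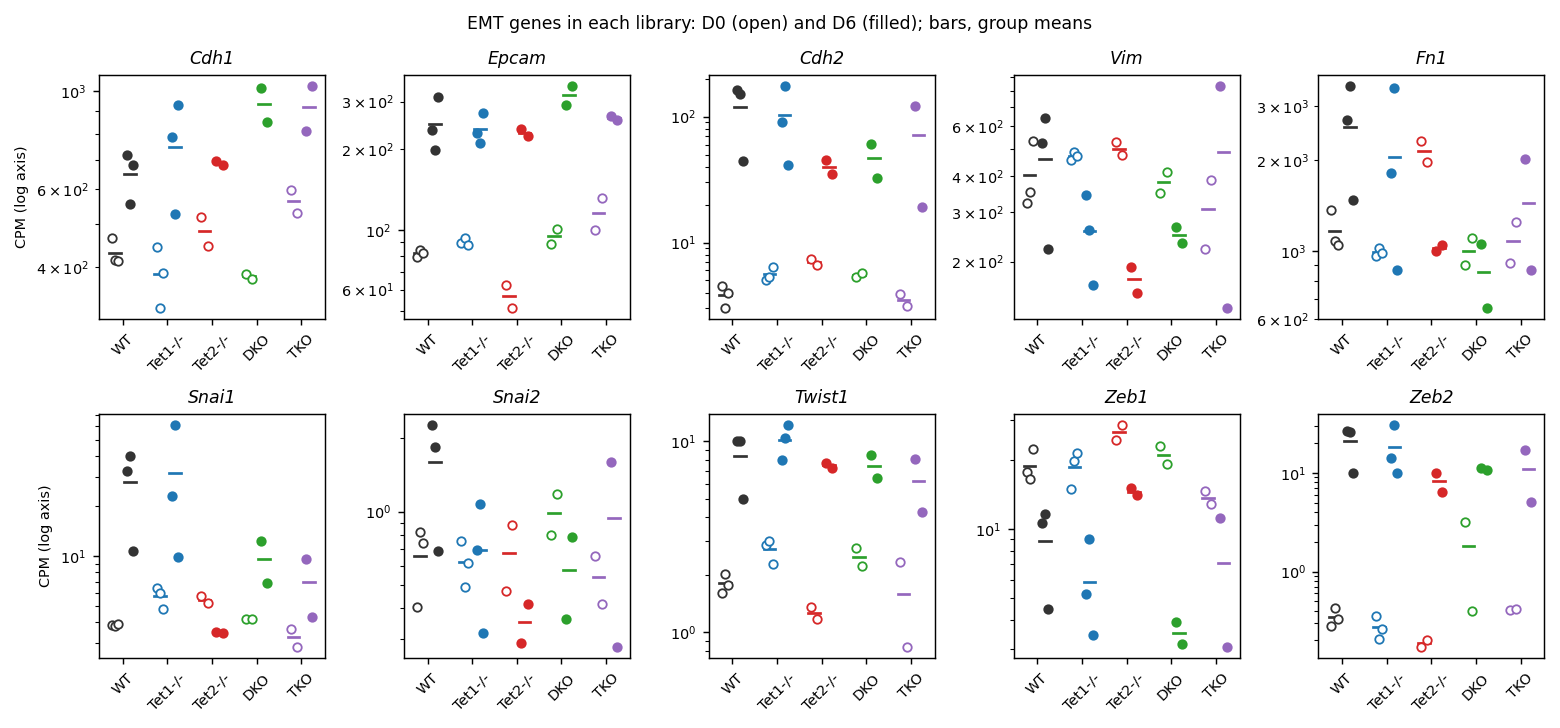
CPM (log axis) of the 10 EMT genes in each of 24 libraries by genotype; open points are D0, filled points D6, and bars the group means. Cdh2 and Zeb2 lie higher at D6 in every genotype, Zeb1 lies lower, and Snai1 at D6 in Tet2-/- (3.45 and 3.48 CPM) lies under every other D6 library.

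The first question was how these genes changed over the 6 days without LIF. In WT cells the epithelial gene Epcam and the mesenchymal genes Cdh2 and Fn1 all rose, as did the transcription factors Snai1, Twist1 and Zeb2, while Zeb1 fell. These 7 called genes of 10 (6 higher, 1 lower) stand beside a background of 34.0% of all 15639 tested genes, of which 20.7% rose and 13.3% fell. The median log2 fold change was 1.44 over the 10 genes and 0.01 over all genes. Tet1-/- also had 6 members called higher and 1 lower, where 19.9% of all genes rose and 11.2% fell (31.1% in all). DKO had 5 and 1 (18.6% and 10.6% of all genes, 29.2% together). Tet2-/- had 4 and 1 (12.7% and 6.44%, 19.1% together). TKO had 4, each of them higher (16.8% of all genes rose and 8.63% fell, 25.4% together). The medians of the 10 genes were 1.22 in Tet1-/-, 1.24 in DKO, 0.90 in TKO and -0.07 in Tet2-/-, and those of all genes were 0.00, -0.01, 0.01 and 0.00. In bulk RNA, fewer cells of a type and less RNA per cell cannot be told apart, for any of these changes.

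**Figure D2:**
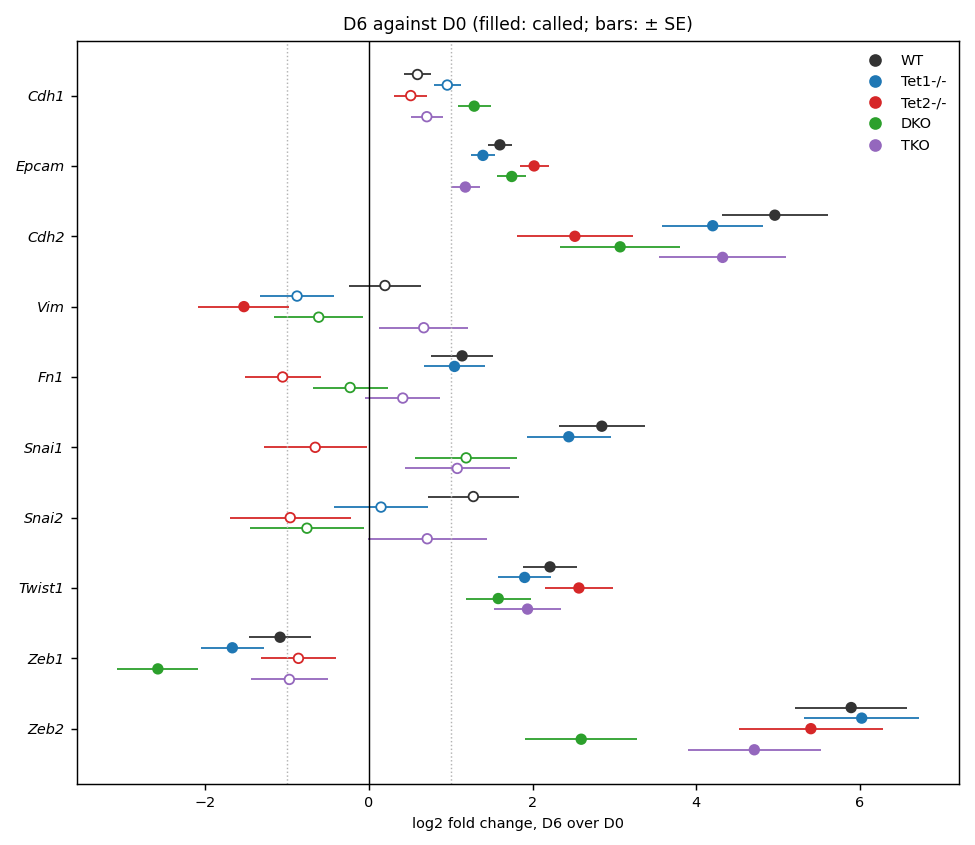
log2 fold change of D6 over D0 for each EMT gene and genotype, with bars of ± SE; filled points were called and dotted lines mark a log2 fold change of 1 in either direction. Epcam, Cdh2, Twist1 and Zeb2 were called higher in all 5 genotypes, and the Fn1 and Snai1 points of Tet2-/- lie below 0 while those of WT and Tet1-/- lie above 1.

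Cdh1 encodes E-cadherin, the adhesion molecule of epithelial junctions, and lies at chr8:109127251-109194146 (mm9). Its level in WT clones O4.1, O4.13 and O4.2 was 467, 417 and 413 CPM at D0, and 716, 557 and 681 CPM at D6. Each clone was higher at D6 and the groups did not overlap. The log2 fold change was 0.59 ± 0.162 (SE, adjusted p = 0.0036), under the fold threshold. Cdh1 was likewise above D0 without a call in Tet1-/- (0.96), Tet2-/- (0.51) and TKO (0.71), and it was called in DKO, from 387 and 378 CPM to 1014 and 851 CPM (log2 fold change 1.29 ± 0.202, adjusted p = 3.55e-05). With clone as a block, which pairs both days of a clone, Cdh1 was also called in Tet1-/- (1.04, adjusted p = 0.000136). E-cadherin RNA therefore fell in none of the 5 genotypes.

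Epcam encodes an epithelial surface adhesion protein (chr17:88035319-88050446, mm9). It rose in every genotype, with log2 fold changes between 1.18 ± 0.174 in TKO and 2.02 ± 0.178 in Tet2-/- (adjusted p at most 2.58e-05). In WT it went from 79.5, 84.4 and 82.3 CPM to 235, 198 and 313 CPM, and in Tet2-/- from 62.2 and 51.3 CPM to 237 and 223 CPM. The D6 levels of both genotypes overlapped, and the Tet2-/- clones had started lower. The TKO call was lost when D0 clone TKO_8.12 was left out (log2 fold change 0.99, adjusted p = 0.00107).

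Cdh2 encodes N-cadherin, the cadherin of mesodermal and neural cells. In WT clones O4.1, O4.13 and O4.2 it was at 4.48, 3.02 and 3.99 CPM at D0, and at 164, 151 and 44.2 CPM at D6. All D6 libraries of all genotypes, from 19.3 to 176 CPM, were above all D0 libraries, which reached at most 7.42 CPM. The rise was called in each genotype, with a log2 fold change of 4.96 ± 0.645 in WT (adjusted p = 2.34e-06), 4.2 ± 0.618 in Tet1-/-, 4.32 ± 0.777 in TKO, 3.07 ± 0.733 in DKO and 2.52 ± 0.706 in Tet2-/- (adjusted p = 0.00851). The TKO value came from clones at 122 CPM (TKO_8.12) and 19.3 CPM (TKO_8.4), and it was 2.47 without the first and 5.1 without the second. In Tet2-/- the call was lost without D0 clone Tet2_KO_3.11 (2.43, adjusted p = 0.0729).

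Vim encodes the intermediate filament vimentin (chr2:13495554-13504453, mm9). WT clones moved in both directions, from 323 to 525 CPM in O4.1 and 353 to 641 CPM in O4.13 but from 535 to 221 CPM in O4.2, and the log2 fold change was 0.20 ± 0.443 (adjusted p = 0.712). TKO clones also split, from 222 to 836 CPM in TKO_8.12 and 389 to 137 CPM in TKO_8.4. In Tet2-/- both clones were lower at D6, at 192 and 155 CPM against 528 and 475 CPM, and Vim was called lower (-1.53 ± 0.555, adjusted p = 0.035). That call was lost with clone as a block (adjusted p = 0.0745) and without any 1 of the 4 Tet2-/- libraries (adjusted p from 0.0848 to 0.161). In TKO without D6 clone TKO_8.4, which left 1 library at D6, the Vim change was 1.45.

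Fn1 encodes fibronectin, a matrix protein that migrating mesoderm cells adhere to, and lies at chr1:71632094-71699774 (mm9). In WT clones O4.1, O4.13 and O4.2 it went from 1364, 1086 and 1049 CPM to 2710, 3512 and 1475 CPM, with no overlap between days. The log2 fold change was 1.14 ± 0.379 (adjusted p = 0.0129), and 0.87 with no call when D6 clone O4.13 was left out (adjusted p = 0.0688). In Tet2-/- both clones were lower at D6, at 1005 and 1050 CPM against 2306 and 1964 CPM at D0. The change in Tet2-/- was -1.06 ± 0.463 and missed the threshold (adjusted p = 0.0769), but it was called with clone as a block (-1.05, adjusted p = 0.0468). Fn1 was called higher in Tet1-/- (1.04 ± 0.378, adjusted p = 0.0217), where D6 values of 1817, 3463 and 869 CPM overlapped those at D0; with clone as a block this fell to 0.36 (adjusted p = 0.449), and without D6 clone Tet1_KO_2.2 to 0.49 (adjusted p = 0.231). It was also lost without D0 clone Tet1_KO_2.1 (adjusted p = 0.0574) or Tet1_KO_2.4 (adjusted p = 0.0542). In DKO (-0.23) and TKO (0.41) the days overlapped.

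Snai1 encodes Snail, an E-cadherin repressor needed for the EMT of gastrulation (chr2:167363695-167368314, mm9). In WT clones O4.1, O4.13 and O4.2 it was at 3.84, 3.80 and 3.91 CPM at D0 and at 32.3, 40.0 and 10.7 CPM at D6. The D0 values lay within a narrow range and every D6 value exceeded them. The log2 fold change was 2.85 ± 0.525 (adjusted p = 0.000109) in WT and 2.44 ± 0.510 (adjusted p = 0.000412) in Tet1-/-, where the D6 libraries were at 23.0, 61.3 and 9.82 CPM and the value was 1.57 without clone Tet1_KO_2.2 (61.3 CPM). In DKO it was 1.19 ± 0.626 (adjusted p = 0.114), and 1.14 with a call when clone was a block (adjusted p = 0.0295). In TKO it was 1.08 ± 0.640 (adjusted p = 0.167). In clones Tet2_KO_3.10 and Tet2_KO_3.11, Snai1 was at 5.76 and 5.20 CPM at D0 and at 3.48 and 3.45 CPM at D6, so both clones were lower after LIF withdrawal. The fitted change of -0.66 ± 0.627 was not past the threshold (adjusted p = 0.427).

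Snai2 encodes Slug, the second Snail family repressor (chr16:14705945-14709488, mm9). It was close to the detection limit throughout, with 9 to 58 counts in any library. In WT the D6 levels of 2.27, 1.85 and 0.690 CPM overlapped D0 levels of 0.404, 0.820 and 0.741 CPM, with a log2 fold change of 1.27 ± 0.557 that just missed the threshold (adjusted p = 0.0506). It was called in 5 of 7 other settings, namely with clone as a block (1.18, adjusted p = 0.0385), RLE factors, library totals, no filter on low counts, and DESeq2 (adjusted p from 0.0302 to 0.0554 over the 7). Of 24 fits that each left out 1 library, 5 called it, among them that without D6 clone O4.2 (1.64, adjusted p = 0.0142), and the adjusted p reached 0.169. In the other genotypes it ranged from -0.96 in Tet2-/- to 0.71 in TKO and was called in none.

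Twist1 encodes a basic helix-loop-helix factor of mesoderm (chr12:34642536-34644682, mm9). Its rise was called in each genotype. In WT it went from 1.62, 2.03 and 1.77 CPM to 10.1, 10.1 and 4.97 CPM (log2 fold change 2.21 ± 0.333, adjusted p = 1.28e-05), and in Tet2-/- from 1.36 and 1.17 CPM to 7.75 and 7.22 CPM (2.57 ± 0.416, adjusted p = 0.000101). Days did not overlap in either genotype. The change was 1.90 ± 0.322 in Tet1-/-, 1.58 ± 0.398 in DKO and 1.94 ± 0.412 in TKO, the last becoming 2.86 without D0 clone TKO_8.12.

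Zeb1 and Zeb2 encode zinc finger repressors of E-cadherin, and their RNA moved in opposite directions. Zeb1 was lower at D6 in all 5 genotypes and called in WT, Tet1-/- and DKO. WT clones O4.1, O4.13 and O4.2 went from 17.6, 16.5 and 22.4 CPM to 10.6, 11.6 and 4.46 CPM, and the log2 fold change of -1.09 ± 0.382 (adjusted p = 0.0177) was no longer called without D6 clone O4.2 (-0.76, adjusted p = 0.0859) or D0 clone O4.2 (-0.94, adjusted p = 0.0619). In Tet1-/- it was -1.67 ± 0.389 (adjusted p = 0.00106). In DKO, Zeb1 went from 23.0 and 19.2 CPM to 3.91 and 3.15 CPM (-2.58 ± 0.494, adjusted p = 0.000258). In Tet2-/- it was -0.86 ± 0.457 (adjusted p = 0.142), from 24.4 and 28.4 CPM to 15.1 and 14.0 CPM. In TKO it was -0.97 ± 0.474 (adjusted p = 0.0946), and called with clone as a block (-1.19, adjusted p = 0.0452). The TKO clones differed, from 12.8 to 3.04 CPM in TKO_8.4 and from 14.6 to 11.2 CPM in TKO_8.12. The change was -0.30 without D6 clone TKO_8.4 and -2.15 without D6 clone TKO_8.12, each leaving 1 library at D6.

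Zeb2 (chr2:44839154-44972915, mm9) had 4 to 10 counts in 11 of 12 D0 libraries and 165 to 859 counts at D6. In WT it went from 0.283, 0.432 and 0.329 CPM to 26.7, 26.0 and 9.94 CPM, a log2 fold change of 5.89 ± 0.686 (adjusted p = 6.34e-07). The rise was 6.02 ± 0.704 in Tet1-/-, 5.40 ± 0.884 in Tet2-/-, 4.71 ± 0.813 in TKO (3.62 without D6 clone TKO_8.12 and 5.34 without TKO_8.4) and 2.59 ± 0.682 in DKO. The DKO value turned on 1 library, since D0 clone DKO_5.11 had 72 counts (3.20 CPM) and clone DKO_5.12 had 8 (0.394 CPM). Without D0 clone DKO_5.11 the DKO change was 4.82, and without clone DKO_5.12 it was 1.81, each leaving 1 library at D0.

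The second question was whether the loss of Tet genes changed these genes before LIF was withdrawn. At D0 no member was called against WT in any of the 4 knockouts by edgeR's quasi-likelihood test or by DESeq2. For the edgeR test alone, the background was 0.00692% of 14456 genes called in Tet1-/-, 0.0346% in DKO, 3.19% in Tet2-/- and 3.15% in TKO. An unadjusted p under 0.05 was found for 2 members in Tet1-/-, 2 in DKO, 5 in Tet2-/- and 3 in TKO, and over all 14456 genes for 1828, 2081, 4218 and 3813. The 4 comparisons share the WT libraries, here and at D6.

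In Tet2-/- ESCs 3 members passed the adjusted p without reaching the fold threshold. Fn1 was at 2306 and 1964 CPM against 1364, 1086 and 1049 CPM in WT (log2 fold change 0.85 ± 0.150, adjusted p = 0.0105). Cdh2 was at 7.42 and 6.57 CPM against 4.48, 3.02 and 3.99 CPM (0.84 ± 0.198, adjusted p = 0.0251). Epcam was at 62.2 and 51.3 CPM against 79.5, 84.4 and 82.3 CPM (-0.55 ± 0.127, adjusted p = 0.0236). None of these ranges overlapped: the mesenchymal genes Fn1 and Cdh2 stood above WT and the epithelial gene Epcam below it. Other members, none of which passed, did not share 1 direction. Cdh1 overlapped WT (0.14), Snai1 (0.49) and Zeb1 (0.47) stood above it, and Twist1 (-0.54) and Zeb2 (-0.87) below it. Overlap was not counted over all genes. In TKO, Epcam alone passed, above WT, at 99.9 and 131 CPM (0.49 ± 0.124, adjusted p = 0.0311). Each of these 4 results missed the threshold in some alternative, with adjusted p up to 0.202 for Fn1, 0.455 for Cdh2 and 0.215 for Epcam in Tet2-/-, and 0.087 for Epcam in TKO. Zeb2 in DKO had the largest estimate (2.36 ± 0.625, adjusted p = 0.135), set by clone DKO_5.11. It was 0.18 without that clone and 3.17 without clone DKO_5.12, each leaving 1 DKO library. Without either TKO clone it was 2.37 and was called. Twist1 in TKO was at -1.10 without clone TKO_8.12 and at 0.38 without clone TKO_8.4, each leaving 1 TKO library.

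The third question was how the genotypes differed after 6 days without LIF. Snai1 in Tet2-/- was the 1 member called against WT in any knockout. It stood at 3.48 and 3.45 CPM against 32.3, 40.0 and 10.7 CPM, a log2 fold change of -3.01 ± 0.794, or 8.05-fold lower (adjusted p = 0.0199). Every WT clone was above both Tet2-/- clones. For all genes the same comparison called 14.3% of 15435, with 9.45% lower. The Snai1 call rested on few libraries. It was lost without either Tet2-/- clone, which left 1 Tet2-/- library, at log2 fold changes of -3.02 and -3.00. Without WT clone O4.13 it was also lost (-2.63, adjusted p = 0.059).

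The other mesenchymal genes and the factors Snai2 and Zeb2 had estimates below WT in Tet2-/- at D6 that did not pass. They were -2.18 ± 0.803 for Snai2 (adjusted p = 0.0618), -1.34 ± 0.552 for Fn1 (adjusted p = 0.0887), -1.36 ± 0.603 for Zeb2 (adjusted p = 0.109), -1.43 ± 0.638 for Vim (adjusted p = 0.112) and -1.60 ± 0.803 for Cdh2 (adjusted p = 0.152). Fn1, Vim and Snai2 did not overlap WT, while Cdh2 and Zeb2 overlapped it through clone O4.2. The share of all genes without overlap was not counted, so overlap here only describes the values. The epithelial genes were close to WT, with 0.06 ± 0.211 for Cdh1 and -0.13 ± 0.178 for Epcam, and so was Twist1 (-0.18 ± 0.343). Zeb1 stood above every WT clone, at 15.1 and 14.0 CPM against 10.6, 11.6 and 4.46 CPM, with an estimate that did not pass (0.70 ± 0.530, adjusted p = 0.336). The median was -1.35 over the 10 members and -0.03 over all genes. Without WT clone O4.2, 3 members were called: Snai1 (-3.39), Snai2 (-2.55, adjusted p = 0.0321) and Zeb2 (-1.69, adjusted p = 0.048). Leaving out a library of another genotype, in the shared fit, also gave calls to Snai2 and Vim (without either TKO clone, adjusted p from 0.0281 to 0.0331) and to Fn1 (without Tet1_KO_2.4 or Tet1_KO_2.2, adjusted p = 0.0428 and 0.0477).

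In Tet1-/-, DKO and TKO no member was called against WT at D6, by edgeR's quasi-likelihood test fitted to the D6 libraries or by DESeq2, and that edgeR fit called 0% of all genes in each. Fitted to all 24 libraries, edgeR called 0 genes for Tet1-/-, 65 higher and 33 lower for DKO and 244 higher and 271 lower for TKO, Snai1 among the latter (-2.01, adjusted p = 0.041), and without the filter on low counts 37 higher and 56 lower for TKO. Over all genes the unadjusted p was under 0.05 for 1949, 2251 and 3629, and DESeq2 called 27 genes up and 16 down for Tet1-/-, 99 up and 86 down for DKO, and 176 up and 294 down for TKO. An unadjusted p under 0.05 was found for 0, 3 and 2 members. The lowest adjusted p-values among the members were 0.451 in Tet1-/-, 0.261 in DKO (Fn1, -1.58 ± 0.558) and 0.15 in TKO (Snai1, -1.99 ± 0.751). Clones differed within these genotypes, and Snai1 was at 12.3 and 6.87 CPM in DKO, and at 9.58 and 4.34 CPM in TKO. The Snai1 levels of DKO overlapped those of WT and the levels of TKO did not.

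**Figure D3:**
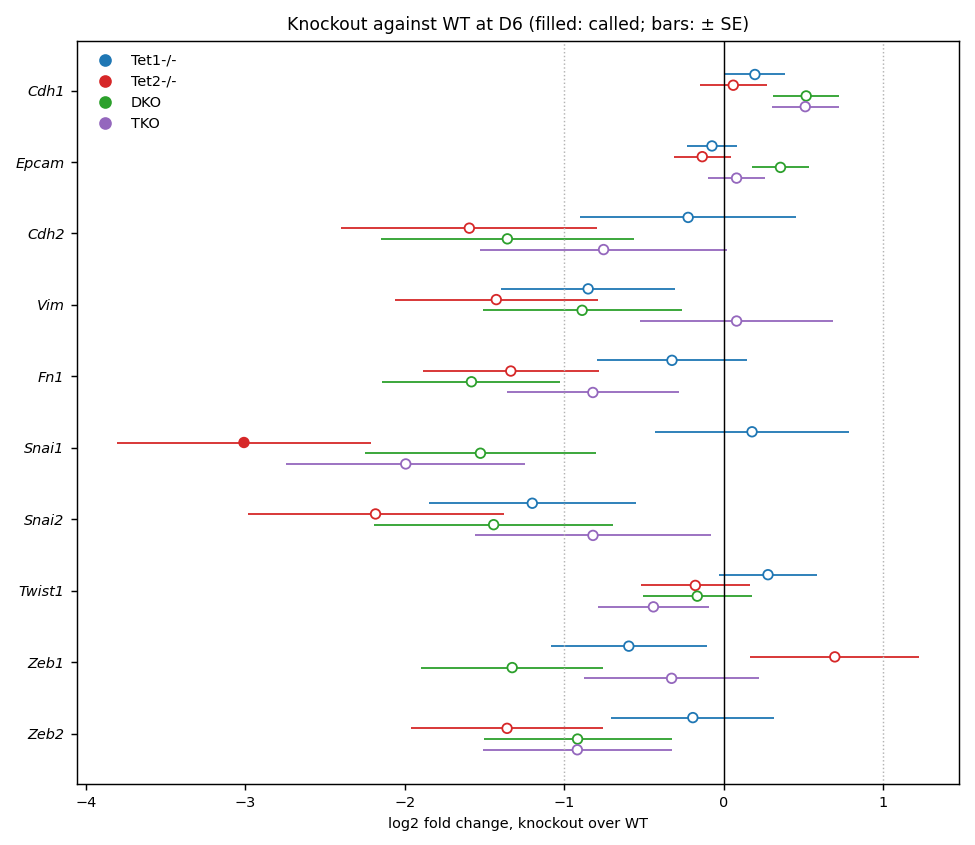
log2 fold change of each knockout over WT at D6 for the EMT genes, with bars of ± SE and dotted lines at a log2 fold change of 1 in either direction. Snai1 in Tet2-/- (-3.01) is the 1 filled, that is called, point, and the Cdh1 and Epcam points lie between -0.13 and 0.52.

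Tet2-/- was also compared with the other knockouts at D6. Against Tet1-/-, Snai1 alone was called (-3.19 ± 0.800, adjusted p = 0.0332), beside 6.36% of all genes called and 4.48% called lower. The call was lost without either Tet2-/- clone, which left 1 Tet2-/- library (-3.19 and -3.18). It was also lost without clone Tet1_KO_2.1 (-3.36, adjusted p = 0.0726) or Tet1_KO_2.2 (-2.26, adjusted p = 0.0651). Without clone Tet1_KO_2.4 the difference was -3.61 (adjusted p = 0.00834). Against DKO, Zeb1 alone was called, higher in Tet2-/- at 15.1 and 14.0 CPM against 3.91 and 3.15 CPM (2.02 ± 0.615, adjusted p = 0.0484), beside 9.50% of all genes called and 3.13% called higher. This call was lost when any of 7 of the 12 D6 libraries was left out, with adjusted p from 0.0592 to 0.247. Against TKO no member was called by edgeR, which called 8.64% of all genes, or by DESeq2. An unadjusted p under 0.05 was found for 1 member and for 5273 of all 15435 genes. Without clone TKO_8.4, which left 1 TKO library, the Vim difference was -2.28. Snai1 was lower in both Tet2-/- clones than in any DKO or TKO clone, but these differences of -1.48 ± 0.799 (adjusted p = 0.223) and -1.01 ± 0.805 (adjusted p = 0.393) did not pass.

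Whether the change from D0 to D6 itself differed from WT was tested with an interaction contrast. In Tet2-/-, Snai1 (-3.50 ± 0.818, adjusted p = 0.0104) and Fn1 (-2.19 ± 0.599, adjusted p = 0.0211) were called, beside 8.68% of all genes, with 5.13% lower. Clone by clone on log2(CPM + 1), Snai1 changed by 1.26 to 3.1 in WT and by -0.59 and -0.48 in Tet2-/-, and Fn1 by 0.49 to 1.69 in WT and by -1.20 and -0.90 in Tet2-/-. For Fn1 both ends contributed, because the Tet2-/- clones were above WT at D0 and below WT at D6. The interaction of Cdh2 was -2.44 ± 0.904 (adjusted p = 0.0693), and it was called with clone as a block (-2.28, adjusted p = 0.0406) and by DESeq2. Those of Epcam (0.42 ± 0.222) and Twist1 (0.35 ± 0.521) did not pass. Leaving out 1 library gave 0 to 5 calls. Snai1 was lost without D6 clone Tet2_KO_3.10 (-3.51). Fn1 was lost without D6 clone Tet2_KO_3.10 (-2.16) or Tet2_KO_3.11 (-2.22) or D0 clone Tet2_KO_3.10 (-2.06). Each of these fits left 1 Tet2-/- library on that day. Without WT D6 clone O4.13, Fn1 was also lost (-1.91, adjusted p = 0.0555). Without WT D6 clone O4.2 the calls were Snai1 (-3.89), Fn1 (-2.47), Cdh2 (-2.84), Snai2 (-2.61) and Vim (-2.06). In Tet1-/-, DKO and TKO no member was called by edgeR or DESeq2, with 0, 5 and 1 unadjusted p under 0.05 and 0%, 0% and 3.58% of all genes called. Over all genes 1200, 1255 and 3687 had an unadjusted p under 0.05, and DESeq2 called 3 genes up and 9 down for Tet1-/-, and 13 up and 7 down for DKO.

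The count of Cdh1 per count of Cdh2, which is free of library scaling, gives the cadherin balance of each clone. At D0 it was 103 to 138 in WT. TKO clones stood above WT at 153 and 170, whereas DKO (66.1 and 72.0), Tet2-/- (67.9 and 70.0) and Tet1-/- clones (60.9 to 88.1) stood below it. It was lower at D6 in each of the 11 clones sequenced on both days. At D6, WT clones O4.13, O4.1 and O4.2 were at 3.69, 4.38 and 15.4, Tet2-/- at 15.4 and 19.6, DKO at 16.7 and 26.3, and TKO at 6.65 (clone TKO_8.12) and 53.3 (clone TKO_8.4). The Tet1-/- clones spanned 3.01 to 22.5, so they overlapped WT and the other knockouts. E-cadherin counts exceeded N-cadherin counts in every library. The summed counts of Cdh1 and Epcam per summed count of Cdh2, Vim and Fn1 did not move in 1 direction. Fn1 gave most of the mesenchymal counts, so the ratio largely follows Fn1. In WT clone O4.1 at D0 it had 33761 counts, beside 7998 of Vim and 111 of Cdh2. The summed ratio was lower at D6 in WT clones O4.1 (0.323 to 0.280) and O4.13 (0.347 to 0.175) and in TKO_8.12 (0.613 to 0.363). It was higher in the other 8 clones, among them both of Tet2-/- (0.205 and 0.204 to 0.750 and 0.729) and both of DKO (0.379 and 0.314 to 0.944 and 1.30).

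**Figure D4:**
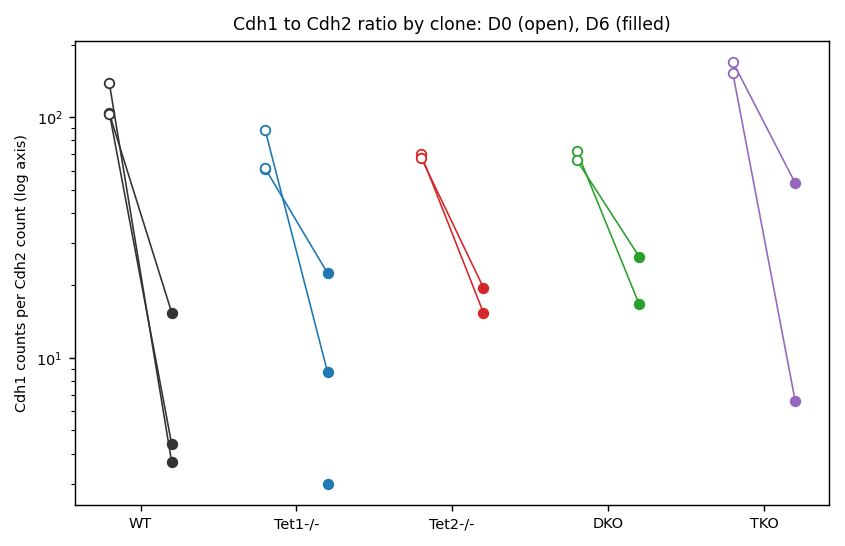
Cdh1 counts per Cdh2 count (log axis) in each library, with lines that join both days of a clone; open points are D0 and filled points D6, and clones Tet1_KO_2.3 (D0) and Tet1_KO_2.2 (D6) have no partner. The ratio falls in all 11 clones sequenced on both days, and at D6 the lowest values are those of clone Tet1_KO_2.2 (3.01) and WT clones O4.13 (3.69) and O4.1 (4.38).

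Markers of other cell types changed too, over days and between genotypes, and not every EMT gene moved with them. Of 11 tested mesoderm and primitive streak markers, 10 were called higher in WT at D6 than at D0 and 9 were called lower in Tet2-/- than in WT at D6, where 20.7% of all genes rose over days in WT and 9.45% were lower in Tet2-/-. Their summed level at D6 was 321 to 1063 CPM in WT, 310 to 1138 CPM in Tet1-/-, 269 and 423 CPM in DKO, 172 and 454 CPM in TKO, and 95.2 and 125 CPM in Tet2-/-, where 1 of the 11 was at 0. Eomes, a streak factor, had the highest mean of the list over all libraries of both days. At D0 Bmp4 was higher, with means of 72.5 CPM against 6.94 CPM for Eomes in WT. The library with the highest sum, clone Tet1_KO_2.2, also had the highest Snai1 (61.3 CPM) and Cdh2 (176 CPM). The 2 Tet2-/- libraries had the lowest sums and the lowest Snai1, but Cdh2 was lowest in clones TKO_8.4 (19.3 CPM) and DKO_5.12 (32.3 CPM). In Tet2-/- the sum went from 150 and 156 CPM at D0 to 125 and 95.2 CPM at D6. Over those days Epcam, Cdh2, Twist1 and Zeb2 were called higher in Tet2-/- and Vim lower. The 12 smooth muscle and fibroblast markers, led by Tagln, summed to 375 to 770 CPM in WT and to 153 and 159 CPM in Tet2-/- at D6. The 10 endoderm markers summed to 99.4 to 311 CPM in WT and 39.7 and 45.3 CPM in Tet2-/-, and the 7 trophectoderm markers, which share Eomes and Hand1 with the mesoderm list, to 228 to 539 CPM and 97.0 and 119 CPM. ESC markers were higher in Tet2-/- (3530 and 3797 CPM) than in WT (1281 to 3000 CPM), with 2 of 10 called higher and 8 not called, and the 9 neuroectoderm markers, led by Otx2, overlapped in their sum (517 and 531 CPM against 307 to 570 CPM), although 4 of the 7 tested were called higher in Tet2-/- and none lower (median log2 fold change 1.23). Among them Tubb3 averaged 118 CPM in Tet2-/- and 13.5 CPM in WT, while Otx2 averaged 174 CPM and 236 CPM. The 8 blood and endothelium markers, at 19.3 to 63.5 CPM in WT and 57.0 and 64.8 CPM in Tet2-/-, were carried mostly by Pecam1, which ESCs express. The part of these cell types in the EMT gene results was not tested.

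**Figure D5:**
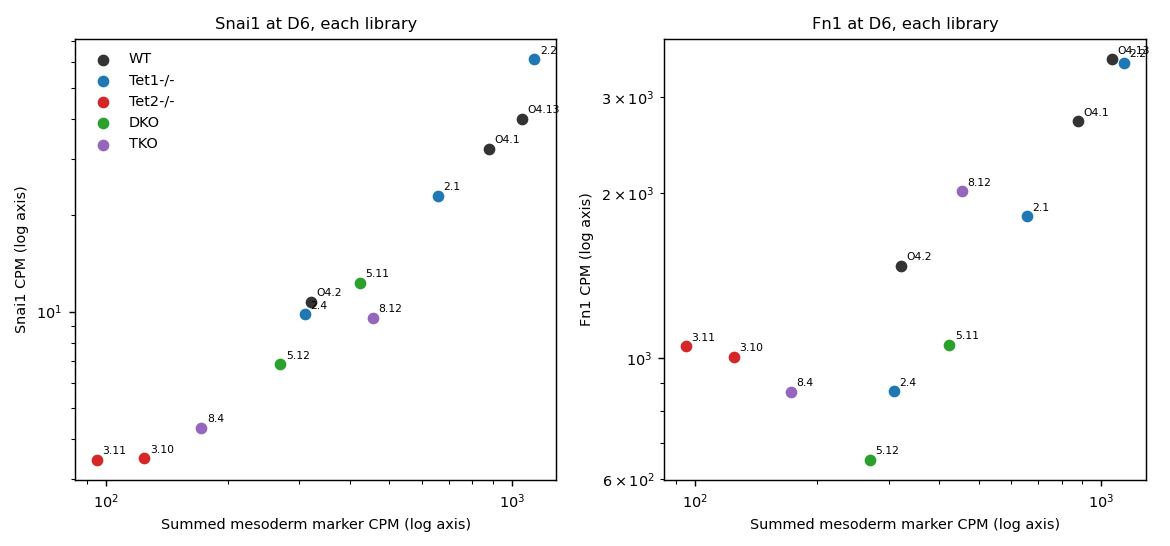
Snai1 (left) and Fn1 (right) CPM against the summed CPM of 11 mesoderm and primitive streak markers in each of the 12 D6 libraries, all on log axes, with clone names. Clones Tet2_KO_3.10 and Tet2_KO_3.11 have the lowest sums (125 and 95.2 CPM) and the lowest Snai1 (3.48 and 3.45 CPM), whereas their Fn1 (1005 and 1050 CPM) lies above that of clone DKO_5.12 (652 CPM).

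The wider EMT pathway was described with lists that partly contain the 10 genes, which are counted in them but left out where the largest changes are named. Their counts stand beside 20.7% of all genes called higher and 13.3% lower in WT over days, and beside 14.3% called, with 9.45% lower, in Tet2-/- against WT at D6. The medians over all genes were 0.01 and -0.03. Of 19 transcription factors of EMT and their partners, 11 were called higher and 1 lower in WT at D6 against D0 (median log2 fold change 2.21), and 6 were called lower in Tet2-/- against WT at D6, the other 13 not being called (median -0.95). Outside the 10 genes, the largest rises in WT were those of Sox9, Twist2 and Foxc1, each with 0 to 2 counts in any WT D0 library and with means of 4.65, 4.29 and 3.69 CPM at D6. Outside the 10 genes, the largest falls in Tet2-/- at D6 were in Sox9 (-3.41 ± 0.915, adjusted p = 0.0211), Twist2 (-3.08 ± 0.477) and Gsc (-2.92 ± 0.436, from 16.6 CPM in WT to 2.2 CPM), which encodes the streak factor goosecoid.

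Of 34 tested mesenchymal cytoskeleton, matrix and adhesion genes, 24 were called higher and 1 lower in WT at D6 (median 2.53, against 20.7% and 13.3% of all genes), and 1 higher and 14 lower in Tet2-/- against WT at D6 (median -1.61). In WT the smooth muscle actin gene Acta2 rose from a mean of 0.192 to 47.3 CPM (log2 fold change 7.90 ± 0.722), and Tnc from at most 1 count per D0 library to 8.4 CPM. Postn was at 0 in all WT D0 libraries and at a mean of 0.557 CPM at D6, at least 4.30-fold higher against a floor of 3 counts per library, and Thy1 fell (-2.20 ± 0.389). In Tet2-/- at D6 the largest falls were in the growth factor receptor Pdgfra (-6.68 ± 1.22, 0.563 CPM against 58.7 CPM in WT), the collagen Col1a1 (-4.36 ± 0.682) and the cadherin Cdh11 (-4.30 ± 0.913), while Col5a2 was higher (1.49 ± 0.477, adjusted p = 0.0399).

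Of 31 epithelial junction, keratin and surface genes, 21 were called higher in WT at D6 and the other 10 were not called (median 1.60, against 20.7% of all genes called higher), so that genes of this list and of the mesenchymal list rose over the same days. Among the genes that rose were the keratins Krt18 (5.54 ± 0.350, from 10.5 to 488 CPM) and Krt8 (5.20 ± 0.368). In Tet2-/- against WT at D6, 1 gene was called higher, the cadherin gene Cdh3 (1.45 ± 0.368, adjusted p = 0.0175), and 13 lower (median -0.86), among them Krt19 (-3.79 ± 0.593). The desmosome gene Pkp1 was at 0 in both Tet2-/- libraries and at 0.419 CPM in WT, at least 4.0-fold lower in Tet2-/-.

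The next 2 lists were called at shares closer to those of all genes (20.7% higher and 13.3% lower in WT, 14.3% called in Tet2-/-). Of 12 regulators of epithelial splicing and transcription, 3 were called higher in WT at D6, namely Cdx2 (6.57 ± 0.938), the splicing regulator Esrp1 (2.99 ± 0.271, from 13.8 to 109 CPM) and Grhl2 (1.59 ± 0.300), and 2 lower, the pluripotency factors Klf4 (-3.00 ± 0.329) and Klf5 (-1.74 ± 0.219). In Tet2-/- at D6 the trophectoderm factor Cdx2 was the 1 gene of this list called against WT (-4.74 ± 1.19, adjusted p = 0.0167), and Esrp1 was at 106 CPM against 109 CPM. Of 8 catenins and cadherin partners, Vcl (1.59 ± 0.118), Mllt4 (1.42 ± 0.189) and Ctnnd2 (1.14 ± 0.334) were called higher in WT at D6, and Ctnnd2 higher in Tet2-/- than in WT (1.03 ± 0.207, adjusted p = 0.00789).

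Of 25 tested genes of TGF-beta and other EMT-inducing signals, 17 were called higher and 2 lower in WT at D6 (median 1.35, against 20.7% and 13.3% of all genes), and 1 higher and 10 lower in Tet2-/- against WT at D6 (median -1.10). The ligand genes Bmp2 (7.71 ± 1.08, from 0.182 to 38.8 CPM) and Tgfb2 (5.91 ± 0.636) and the matrix gene Cyr61 (4.61 ± 0.322) rose most in WT, and Tgfbi (-2.49 ± 0.337) and the inhibitory Smad7 (-1.38 ± 0.168) fell. In Tet2-/- at D6, Bmp2 (-7.18 ± 1.47, 0.260 CPM), Tgfb2 (-3.30 ± 0.768) and Tgfb1 (-2.89 ± 0.671) were lower than in WT and Tgfbi was higher (2.91 ± 0.283, 58.9 CPM against 7.71 CPM).

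The genes most like each member were named by Pearson's r of log2(CPM + 1) over the 24 libraries, which share clones and the difference between days, so that r is a description. Cdh2 was most like Pcdh18 (r = 0.98), Prkd1 and Slitrk2, and Slitrk2 also led for Zeb2 (0.98) and Twist1 (0.96). Snai1 was most like the mesoderm factor gene Mesp1 (0.97), Nrp1 and Bmper (both 0.97), and Epcam like the tight junction gene Cldn7 (0.97), Pls3 and Stag2. Cdh1 was most like Acsl5 (0.92), Marveld3 and Slc18a1. Zeb1, the member that fell in WT, was most like Lifr (0.94), which encodes the LIF receptor, then Slc39a6 (0.90) and Lin37 (0.89). Likeness was weaker for Fn1 (Fam212a, 0.89, then Hes1 and Stk36), Vim (Ptgs1, 0.83, then Plekhb2 and Zc3hav1) and Snai2 (Tbx5, 0.79, then Tnni1 and Hoxa13).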

How the data were processed

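RNA-seq libraries of 24 samples were used. The authors mapped paired-end reads to mm9 with STAR (version 2.5.1 per the submitters' notes) and deposited raw counts per RefSeq line, without normalization. Their supplement names featureCounts and HTSeq as counting programs, and use of strand is not given in the sources used here, so antisense overlap is uncertain. Their notes also name DESeq2, and their ERCC spike-in scaling was not repeated. The tables held 31928 lines for 22926 symbols, and the first line was kept where a symbol had several (4911 symbols). Among the members these were Zeb2 (2 lines, 0.990 to 1.30 times the first) and Fn1 (7 lines, 0.876 to 1.05 times).

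Samples were grouped by genotype and day from the labels, and replicates are clones. One D6 DKO label gives the clone without its decimal point and was read as DKO_5.12. In R 4.3.3, edgeR 4.0.16 with TMM scaling (factors 0.918 to 1.10) and filterByExpr (minimum count 10) was fitted with 1 coefficient per group: D0 libraries (14456 genes), D6 libraries (15435) and all libraries (15639, for days and interactions). P-values were adjusted by Benjamini-Hochberg over all tested genes, and the SE is the absolute log2 fold change divided by the square root of F. Library depth is given by total counts, and the spread between clones set the precision of the tests. Alternatives were RLE factors, library totals, no filter, other lines, DESeq2 1.42.0, blocks and leaving out each library. RPKM used GENCODE vM1 (NCBIM37, mm9) transcript lengths, promoters the RefSeq GRCm38.p6 table, and coordinates of the builds were not mixed. Scripts were tested on simulated data.

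The clone names in the labels pair the days. Deviations of the same clone from its group means correlated at 0.081 to 0.193 over 11 clones, above 0.1 in 10. Both clones of a 2-clone genotype share 1 such value. Same-numbered D0 libraries of different clones correlated at a median of 0.13, so the correlation does not separate shared clones from others. The members and lists were chosen with earlier results of these data known. Named were all members, from each pathway list the 3 called genes other than members with the largest rise and fall in WT over days and in Tet2-/- against WT at D6, from each cell type list 1 or 2 of the most abundant genes, and the 3 genes most like each member. A gene that this rule named is not reported here.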

Additional observations from a re-analysis of the deposited data

Results flagged for a closer look

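The change from D0 to D6 differed between Tet2-/- and WT for Snai1, with an interaction of -3.50 on the log2 scale (edgeR quasi-likelihood test, Benjamini-Hochberg adjusted p = 0.0104); all 3 WT clones moved up and both Tet2-/- clones moved down. The same contrast differed for Fn1, with an interaction of -2.19 (adjusted p = 0.0211), again with the 3 WT clones up and both Tet2-/- clones down. Samples of 1 group were not screened for single distant values because no group held more than 3.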

How the results depend on the processing

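Over 1021 refits of the 34 called member values, 984 stayed called, 37 lost the call and 0 changed direction. Many of these refits left out a library outside the groups compared. The total therefore says little about the libraries that carry a call, which are given beside the results. Without a fold threshold, 3 members were called in Tet2-/- and 1 in TKO against WT at D0, each lost in some alternative. Against WT at D6, DESeq2 called 3 members in Tet2-/- (Snai1, Snai2 and Zeb2), and the fit of all libraries called 4 (Snai1, Snai2, Vim and Fn1) in Tet2-/- and 1 (Snai1) in TKO, and 2 (Snai1 and Zeb1) in Tet2-/- against Tet1-/-. For Tet2-/- against DKO, library totals and the sum of lines each gave 0. Library totals in place of TMM gave medians of all genes over days of 0.14 (Tet2-/-) to 0.21 (Tet1-/-) in place of -0.01 to 0.01, and 3531 genes higher and 1168 lower in DKO (2904 and 1660 with TMM) and 3124 and 950 in TKO (2626 and 1350), and Zeb1 in WT and Vim in Tet2-/- were then not called over days. Leaving out 1 library gave 3 to 6 calls for the days of Tet2-/-, 0 to 1 for DKO and for TKO against WT at D0, 0 to 3 for Tet2-/- against WT at D6, 0 to 1 for Tet2-/- against each of Tet1-/-, DKO and TKO at D6, and 0 to 5 for the Tet2-/- interaction. With clone as a replicate block, which pairs the days, the members called numbered 8 (WT), 7 (Tet1-/-), 5 (Tet2-/-), 7 (DKO), 5 (TKO) and 3 (Tet2-/- interaction), and the calls that changed are given beside the results. Replicate numbers within a day join libraries of different clones (median correlation of same-numbered libraries 0.13 at D0 and -0.04 at D6). As a block they left each count of called members at its value. The cause of these changes was not tested. The spread between clones limits the D6 comparisons, and low counts limit Zeb2 at D0 (4 to 10 in 11 of 12 libraries) and Snai2 (9 to 58).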

Other observations

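Zeb2 set the DKO clones apart at D0, with 72 counts in clone DKO_5.11 and 8 in clone DKO_5.12, an 8.1-fold difference in CPM. Among 11449 genes with at least 50 counts in either library, Zeb2 was the 1 gene with so high a ratio in that direction, and 0 genes reached it in the other. This comparison was chosen after the values were seen, and it is between 2 libraries. At D6 the clones were at 11.2 and 10.8 CPM.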
